A study of Saccharomyces cerevisiae with 23 samples.

Results

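The transcriptome of sporulating budding yeast was compared between the libraries taken at 3, 3.25 and 3.5 h in sporulation medium (SPO) and those taken at 2.25, 2.5 and 2.75 h, chosen by their times with earlier results of these data known. These are 6 of the 23 libraries of the series, and 6377 of the 6867 genes in the tables were tested between them. All libraries come from strain A 33606 of Saccharomyces cerevisiae, in which IME1 and IME4 are placed behind the promoter of the copper-responsive CUP1 gene, as the series title gives it. Cells were grown to saturation in rich medium (YPD), diluted overnight in BYTA medium and moved into SPO, and copper sulphate was given at 2 h to switch IME1 and IME4 on. Every group carries the same alleles and had the same copper treatment. The windows are called the entry window (3 to 3.5 h) and the early window (2.25 to 2.75 h). By the labels they differ in time, and time in SPO cannot be told apart from time since copper was given. The 3 to 3.5 h window is the one in which the culture is taken to enter premeiotic S phase. DNA content is not analysed here, so the name rests on the transcripts described below. Each time has 1 library, and consecutive times stand in for replicates. Errors and p-values below thus measure the spread between neighbouring times of the series, which holds both the technical error and the trend within a window. The labels do not say whether the times come from 1 culture or several.

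Meiosis starts with a round of DNA replication, premeiotic S phase, which uses nearly the same origins, helicase and polymerases as mitotic S phase. Ime1 is the transcription factor that starts the meiotic programme, and it acts on early genes through Ume6, a repressor bound to the URS1 element. Genes for DNA replication and nucleotide supply are switched on at the G1/S border by MBF, a factor that binds ACGCGT, while the core histone genes are transcribed during S phase itself. The cyclins Clb5 and Clb6 drive premeiotic replication, and cohesin with its meiotic subunit Rec8 is laid down on the chromosomes as they are copied.

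Library depth was similar in the 6 libraries, while their composition differed somewhat between the windows. The authors' confidence bounds imply 686635 to 1000301 fragments on listed genes per library, and the small nucleolar RNA SNR39B held 40.2%, 39.6% and 40.1% of the summed FPKM (fragments per kilobase of gene and per sequencing depth) at 3, 3.25 and 3.5 h, against 45.6%, 43.8% and 46.3% at 2.25, 2.5 and 2.75 h. FPKM was therefore divided by a median-of-ratios factor per library, and these scaled FPKM are used throughout. The factors were 1.139, 1.036 and 0.986 at 3, 3.25 and 3.5 h and 0.810, 1.036 and 1.023 at 2.25, 2.5 and 2.75 h. The library at 2.25 h stood apart from the other five: on the first principal component, which held 31.6% of the variance, it lay at -62.8, against -18.1 at 2.5 h and 15 to 27.8 from 2.75 to 3.5 h. Log2 changes are differences of the mean log2(scaled FPKM + 1) at 3 to 3.5 h minus that at 2.25 to 2.75 h, which understates the change of low genes.

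With the spread taken from the 6 libraries, limma with Benjamini-Hochberg adjustment called no gene higher at 3 to 3.5 h (0.0% of genes tested) and 1 gene lower (0.0157%). The median log2 change over all genes was -0.003, and 936 genes had an unadjusted p under 0.05. The gene called lower was YHR212W-A, a short reading frame that was listed at 0 in all 3 libraries from 3 to 3.5 h, against 12.5, 17.5 and 19.3 FPKM at 2.25, 2.5 and 2.75 h (adjusted p = 0.0153, limma). No more than 2 implied fragments stood behind any of these values. When limma took the spread from 21 libraries in 7 windows of 3 consecutive times, 12 genes (0.188%) were called higher and 21 genes (0.329%) lower for the same pair of windows, and 7 of the 12 were core histone genes. This fit is the source of each call below that names 21 libraries. Its spread is pooled over all 7 windows, most of them later than the compared pair, and the last holds 7.5, 8 and 10 h. Such p-values thus do not measure the spread of the compared pair alone. Log2 changes and their standard errors (SE) come from the fit on the 6 libraries, also where such a p-value stands beside them. A further description needs no model: a gene was counted as apart when all 3 libraries of a window lay beyond all 3 of the other and its log2 change was at least 1 in size. By this count 168 genes (2.63% of genes tested) were higher at 3 to 3.5 h and 210 genes (3.29%) were lower. Such counts carry no p-value: an exact permutation test of 3 libraries against 3 cannot go below 0.1.

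Where in its window such a gene peaks is partly fixed by the selection, so the next counts are a description. Of the 168 genes apart and higher, 152 reached their highest level of the 6 libraries at 3.25 or 3.5 h, and 139 (82.7%) were still above their highest early value in the mean of 3.75 to 4.25 h. Of the 210 genes apart and lower, 137 were highest at 2.25 h, 61 at 2.5 h and 12 at 2.75 h, and 180 (85.7%) were still below their lowest early value in the mean of 3.75 to 4.25 h. On the deposited FPKM, where the median of all genes shifted by 0.124 on the log2 scale, 255 genes were apart and higher and 146 were lower, so that 63.6% of them were higher, against 44.4% on the scaled values. Without the 2.25 h library 218 genes were apart and higher and 232 lower. Without 2.75 h the counts were 333 and 445, and without 3 h they were 313 and 312.

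**Figure D1:**
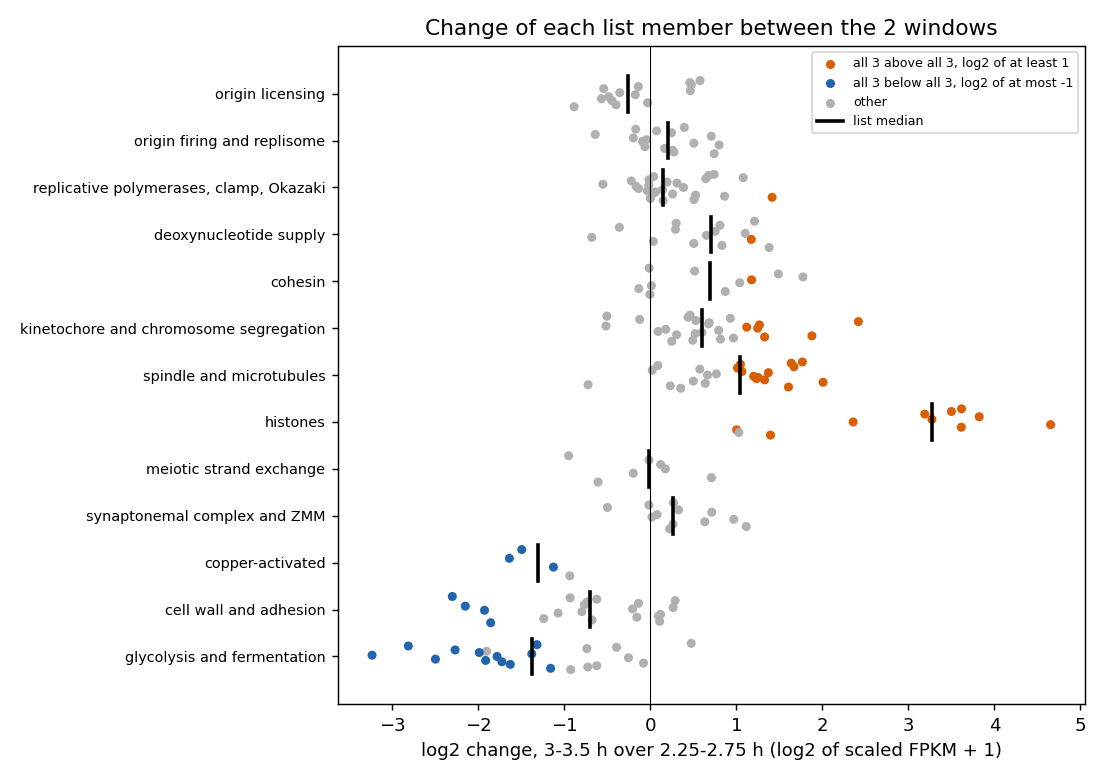
Log2 change at 3 to 3.5 h over 2.25 to 2.75 h (log2 of scaled FPKM + 1, x axis) of each tested member of 13 gene lists (rows), 1 point per gene, with a black bar at each list's median. Histones lie farthest to the right with a median of 3.27, the replication lists lie around 0, and glycolysis and fermentation lie farthest to the left with a median of -1.38.

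Core histone genes had the largest changes among the genes called higher. Of the 11 histone genes, 10 were apart and higher at 3 to 3.5 h, against 2.63% of all genes, and the list's median log2 change was 3.27, against -0.003 over all genes. Limma on 21 libraries called 7 of the 11 higher (0.188% of all genes), and on the 6 libraries alone the lowest adjusted p was 0.147. HHF1 (chrII:255373-255684, R64), which encodes histone H4, had 2158, 6632 and 4314 FPKM at 3, 3.25 and 3.5 h, against 128, 89.0 and 333 FPKM at 2.25, 2.5 and 2.75 h. Every entry library thus lay far above every early library, and the value at 2.75 h was already above the other early values. Its log2 change was 4.65 ± 0.60 (SE of the fit on the 6 libraries), the largest among the 12 genes called higher (adjusted p = 0.000883, limma on 21 libraries). In a bulk culture, more cells that express a gene and more RNA per cell cannot be told apart.

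The second H4 gene, HHF2 (chrXIV:576727-577038), followed the same course with 1239, 2829 and 2021 FPKM at 3, 3.25 and 3.5 h, against 96.7, 98.6 and 394 FPKM at 2.25, 2.5 and 2.75 h. HHT1, for histone H3, had 748, 1821 and 2001 FPKM at 3, 3.25 and 3.5 h, against 111, 101 and 263 FPKM in the early window. Both H4 genes and HHT1 passed limma on 21 libraries (adjusted p = 0.000883 for HHF1, 0.0154 for HHF2 and 0.00398 for HHT1). HHT2, the other H3 gene, started from a higher level, with 2978, 4629 and 5098 FPKM at 3, 3.25 and 3.5 h, against 714, 557 and 1307 FPKM at 2.25, 2.5 and 2.75 h (log2 change 2.36 ± 0.39, adjusted p = 0.0760, limma on 21 libraries). Its windows did not overlap, but it did not pass the test.

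The genes of the other core pair had lower levels and like changes. HTA1, for histone H2A, had 143, 291 and 242 FPKM at 3, 3.25 and 3.5 h, against 15.7, 6.85 and 41.0 FPKM at 2.25, 2.5 and 2.75 h (log2 change 3.62 ± 0.62). HTB2, for histone H2B, had 336, 861 and 871 FPKM at 3, 3.25 and 3.5 h, against 12, 40.3 and 165 FPKM at 2.25, 2.5 and 2.75 h (log2 change 3.82 ± 0.91). All 4 H2A and H2B genes passed limma on 21 libraries, with adjusted p from 0.00859 (HTA1) through 0.0175 (HTB1 and HTB2) to 0.0474 (HTA2), and none of their windows overlapped. HTA2 had 45.5, 58.1 and 102 FPKM at 3, 3.25 and 3.5 h, against 1.97, 5.48 and 9.10 FPKM in the early window, its lowest value resting on 1 implied fragment.

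Summed over the 8 core genes, the level was 13762 ± 5120 FPKM at 3 to 3.5 h and 1587 ± 978 FPKM at 2.25 to 2.75 h (SD over 3 consecutive times each). By library the sum ran 1129, 923, 2710, 7998, 17785 and 15503 FPKM from 2.25 to 3.5 h, and then 9811, 3999 and 1752 FPKM at 3.75, 4 and 4.25 h. The histone pulse was therefore short: at 4.25 h the sum was again within the range of the early window. By histone, the entry window held 6398 ± 3033 FPKM of H4, 5758 ± 1790 FPKM of H3, 1312 ± 551 FPKM of H2B and 294 ± 90.9 FPKM of H2A (SD over 3 times). With both windows moved 1 library later, 4 histone genes were apart.

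**Figure D2:**
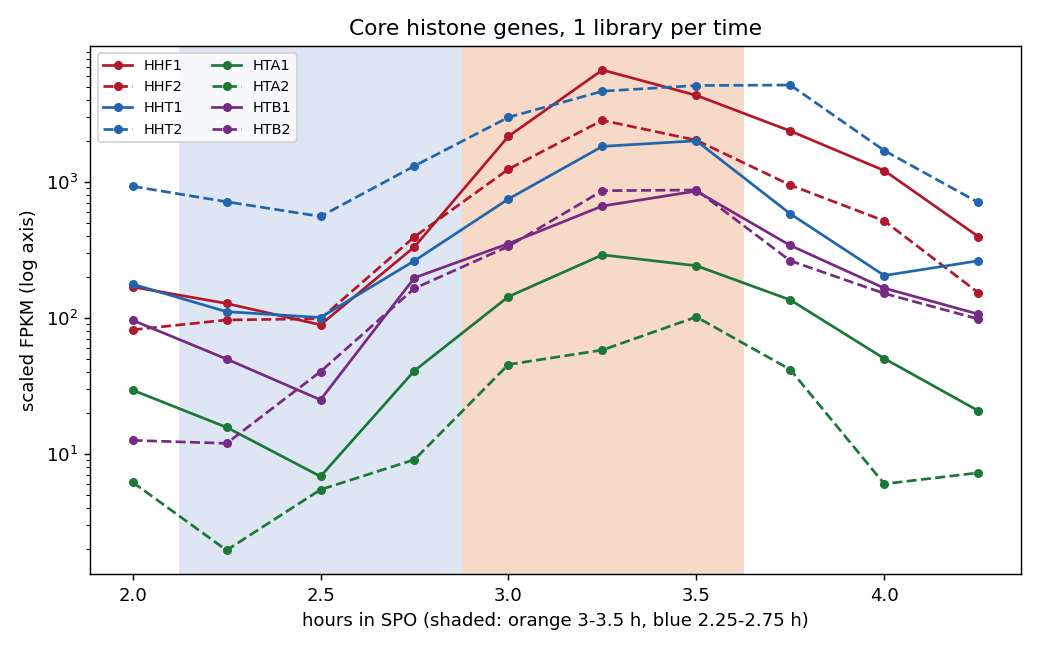
Scaled FPKM (y axis, log scale) of the 8 core histone genes by hours in SPO (x axis), 1 library per time, from 2 to 4.25 h, with the 3 to 3.5 h window in orange and the 2.25 to 2.75 h window in blue. All 8 genes lie higher at 3 to 3.5 h, and the HHF1 value of 6632 FPKM at 3.25 h is the highest of the plot.

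The paired histone genes are near copies of each other, which limits how reads can be divided between them. The coding sequences were identical at 97.4% of positions for HHF1 and HHF2, 93.7% for HTA1 and HTA2, 93.2% for HHT1 and HHT2 and 87.9% for HTB1 and HTB2. The level of a single gene of a pair is thus less certain than the sum of the pair. The 3 genes for special histones moved less. CSE4, the centromeric H3 variant, had 109, 137 and 96.7 FPKM at 3, 3.25 and 3.5 h, against 35.6, 28.7 and 73.9 FPKM in the early window (log2 change 1.40). HHO1, for the linker histone, had 154, 228 and 272 FPKM at 3, 3.25 and 3.5 h, against 113, 94.5 and 109 FPKM in the early window (log2 change 1.00). Both were apart and neither passed limma on 21 libraries (adjusted p = 0.432 and 0.581). HTZ1, the H2A.Z variant, had 29.4, 54.8 and 121 FPKM in the entry window, against 38.2, 38.6 and 14.7 FPKM in the early window, and its windows overlapped.

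The genes that copy the DNA stood high before the histones did. There were 69 genes for origin licensing, origin firing, polymerases and nucleotide supply. Of these, 48 were highest among the 6 libraries at 2.75 or 3 h, against 1726 of all 6377 genes. At 3.5 h, 54 of the 69 were lower than at 2.75 h. In the comparison of the windows, 2 of the 69 were apart and higher, none were apart and lower, and neither limma fit called any of them. Their median log2 change was 0.20, with 0.21 for origin firing and the replisome and 0.15 for polymerases, the clamp and Okazaki fragments. By library, the median of the 25 genes for polymerases, the sliding clamp and Okazaki fragment processing ran 10.1, 26.7, 41.3, 36.4, 25.6 and 17.6 FPKM from 2.25 to 3.5 h, while that of the 11 histone genes ran 49.9, 40.3, 165, 336, 664 and 855 FPKM. The border between the windows thus lay within the peak of the replication genes.

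**Figure D3:**
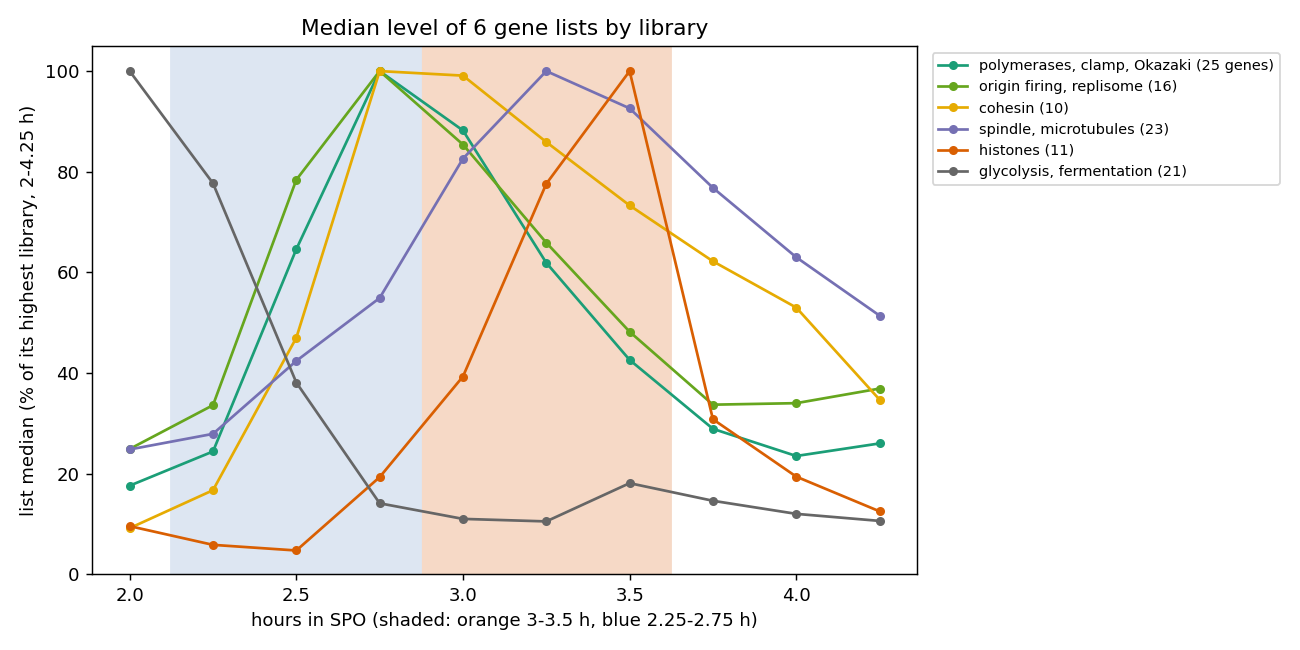
Median level of 6 gene lists as a percentage of each list's highest library (y axis) by hours in SPO (x axis), 1 library per time, with the 3 to 3.5 h window in orange and the 2.25 to 2.75 h window in blue. The polymerase, firing and cohesin lists are highest at 2.75 h, the spindle list at 3.25 h and the histones at 3.5 h, while glycolysis is highest at 2 h.

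ACGCGT was frequent in the promoters of these genes, and a few are printed to show where it lies. Windows of 250 bases before to 50 bases after the annotated gene start were read from the RefSeq genome (R64) for 5727 genes, and ACGCGT, which reads the same on both strands, was searched in them. It stood in 28 of the 69 replication and nucleotide promoters (40.6%) and in 25 of the 48 whose gene was highest at 2.75 or 3 h (52.1%), against 181 of all 5727 (3.16%). None of the 11 histone promoters held it. Among the genes apart between the windows, 7 of 151 promoters of higher genes (4.64%) and 3 of 177 of lower genes (1.69%) held it. The promoters of POL1 (chrXIV:429837-430136, plus strand), CDC21 (chrXV:467540-467839, minus strand), CDC45 (chrXII:345892-346191, minus strand) and SMC3 (chrX:302800-303099, minus strand) follow, 5′ to 3′ in the direction of the gene, with ACGCGT in capitals. That of HHF1 (chrII:255635-255934, minus strand), the histone gene with the largest change, has no match and stands last. The matches begin 208 and 173 bases before the start in POL1, 158 and 121 in CDC21, 180 and 150 in CDC45, and 117 in SMC3. A match is a description of the letters and does not show binding.
POL1: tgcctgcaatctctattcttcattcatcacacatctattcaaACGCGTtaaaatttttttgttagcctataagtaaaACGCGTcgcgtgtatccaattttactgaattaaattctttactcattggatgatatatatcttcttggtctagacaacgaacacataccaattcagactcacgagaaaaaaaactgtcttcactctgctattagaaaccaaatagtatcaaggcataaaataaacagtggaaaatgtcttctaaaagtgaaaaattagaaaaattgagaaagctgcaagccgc
CDC21: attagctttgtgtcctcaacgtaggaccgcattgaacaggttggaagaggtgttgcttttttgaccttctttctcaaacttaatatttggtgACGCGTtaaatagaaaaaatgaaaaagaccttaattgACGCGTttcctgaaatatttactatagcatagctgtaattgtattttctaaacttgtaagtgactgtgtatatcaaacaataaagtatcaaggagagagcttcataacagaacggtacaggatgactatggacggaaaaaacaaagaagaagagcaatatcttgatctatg
CDC45: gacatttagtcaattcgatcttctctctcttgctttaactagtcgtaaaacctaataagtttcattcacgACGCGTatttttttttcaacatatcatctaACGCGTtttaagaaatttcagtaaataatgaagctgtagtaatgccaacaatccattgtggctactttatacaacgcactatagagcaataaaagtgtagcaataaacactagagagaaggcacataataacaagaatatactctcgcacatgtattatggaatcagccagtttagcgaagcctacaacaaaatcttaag
SMC3: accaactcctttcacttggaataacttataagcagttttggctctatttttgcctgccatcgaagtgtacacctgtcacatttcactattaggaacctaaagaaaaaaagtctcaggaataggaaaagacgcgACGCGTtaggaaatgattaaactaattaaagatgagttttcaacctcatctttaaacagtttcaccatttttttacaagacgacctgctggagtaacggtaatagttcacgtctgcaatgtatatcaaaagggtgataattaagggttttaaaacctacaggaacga
HHF1: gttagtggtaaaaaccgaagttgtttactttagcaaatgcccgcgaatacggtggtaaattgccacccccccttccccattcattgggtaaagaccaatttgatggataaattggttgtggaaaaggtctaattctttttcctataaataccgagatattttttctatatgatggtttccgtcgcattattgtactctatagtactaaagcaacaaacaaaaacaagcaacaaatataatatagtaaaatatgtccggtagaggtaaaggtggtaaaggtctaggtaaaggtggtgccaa

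POL1 (chrXIV:430087-434493), the catalytic subunit of DNA polymerase alpha, had 80.0, 53.1 and 23.4 FPKM at 3, 3.25 and 3.5 h, against 8.89, 33.5 and 65.8 FPKM at 2.25, 2.5 and 2.75 h. The windows overlapped, with the highest value at 3 h and the lowest at 2.25 h (log2 change 0.74 ± 0.76). CDC45 (chrXII:343989-345941), a part of the replicative helicase, had 60.9, 35.6 and 21.3 FPKM at 3, 3.25 and 3.5 h, against 9.03, 33.3 and 63.6 FPKM in the early window. CDC21 (chrXV:466675-467589), thymidylate synthase, had 221, 147 and 64.4 FPKM at 3, 3.25 and 3.5 h, against 21.4, 96.4 and 204 FPKM in the early window. All 3 genes climbed within the early window and declined within the entry window. RNR1, the large subunit of ribonucleotide reductase, had 94.7, 76.6 and 61.5 FPKM at 3, 3.25 and 3.5 h, against 9.23, 39.6 and 89.1 FPKM in the early window, so its decline was slower.

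The licensing list had its highest median at 3 h, with 16.5 FPKM, little above its 15.98 FPKM at 2.75 h. MCM7, a helicase subunit loaded at origins before S phase, had 26.5, 9.48 and 11.3 FPKM at 3, 3.25 and 3.5 h, against 14.4, 33.9 and 40.8 FPKM in the early window (log2 change -0.89 ± 0.51, adjusted p = 0.459, limma). Of the 14 licensing genes, 10 were highest in the early window, against 3443 of all 6377 genes, and 10 had a log2 change below 0 (median -0.26). Of the 14 genes for deoxynucleotide supply, 9 were highest in the entry window, against 2934 of all 6377 genes. A log2 change above 0 was seen in 12 of these 14 (median 0.70). Neither list had a call in either limma fit of these windows. The 2 replication genes that were apart and higher were RFA3, a subunit of the single-strand binding protein RPA, and DUN1, a checkpoint kinase that controls nucleotide supply. RFA3 had 89.3, 103 and 64.9 FPKM at 3, 3.25 and 3.5 h, against 18.5, 25.8 and 60.8 FPKM in the early window (log2 change 1.42). DUN1 had 27.0, 26.5 and 18.8 FPKM in the entry window, against 4.89, 10.4 and 18.7 FPKM in the early window (log2 change 1.17, and 0.73 without the 2.25 h library, which is under the limit of 1). Their share, 2 of 69, was near the 2.63% of all genes. Without the 2.25 h library RFA3 was the 1 of the 69 apart and higher, and 2 licensing genes were apart and lower.

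The histone chaperones were highest at the times of the replication genes, earlier than the histones. Of the 18 chaperones and histone regulators, 14 were highest at 2.75 or 3 h, against 1726 of all 6377 genes. None of the 18 were apart. ASF1, the chaperone that hands new H3 and H4 to the replication fork, had 474, 458 and 207 FPKM at 3, 3.25 and 3.5 h, against 70.8, 234 and 369 FPKM in the early window (log2 change 0.95, adjusted p = 0.533, limma).

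Cyclins and G1/S regulators differed among themselves. CLB5 (chrXVI:773875-775182), the main S phase cyclin, had 44.2, 32.3 and 23.1 FPKM at 3, 3.25 and 3.5 h, against 11.9, 39.4 and 60.8 FPKM at 2.25, 2.5 and 2.75 h, with overlapping windows and its highest value at 2.75 h. CLB6, its close relative, had 14.4, 13.1 and 12.5 FPKM at 3, 3.25 and 3.5 h, against 0.820, 5.71 and 6.96 FPKM in the early window. The CLB6 windows were apart (log2 change 1.64 ± 0.55, adjusted p = 0.281, limma), but at 3.75 h it stood at 1.81 FPKM, and with both windows 1 library later its log2 change was -0.20. When the 2.25 h library was left out it was 0.97, under the limit of 1. SIC1, the inhibitor of cyclin B kinase that is removed at S phase, had 63.8, 55.8 and 29.1 FPKM in the entry window, against 37.2, 51.1 and 66.1 FPKM in the early window (log2 change -0.09 ± 0.37).

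NRM1 (chrXIV:642690-643439), a co-repressor that shuts MBF targets off as S phase proceeds, was the only member of its list that rose by limma on 21 libraries. It had 58.3, 97.7 and 103 FPKM at 3, 3.25 and 3.5 h, against 8.45, 14.2 and 26.6 FPKM at 2.25, 2.5 and 2.75 h (log2 change 2.42 ± 0.44, adjusted p = 0.0387, limma on 21 libraries). Its entry values were all above its early values, and it was highest at 3.5 h. POL1, CDC45 and CLB5 had their lowest entry values at 3.5 h, and MCM7 at 3.25 h. Whether these courses are linked to that of NRM1 was not tested. WHI5, a repressor of the related factor SBF, had 13.7, 16.5 and 23.7 FPKM at 3, 3.25 and 3.5 h, against 3.70, 8.78 and 3.15 FPKM in the early window (log2 change 1.69, adjusted p = 0.0829, limma on 21 libraries). With CLB6 these were the 3 of 14 members of the list that were apart and higher, against 2.63% of all genes. Without the 2.25 h library 2 members were apart and higher and 1 was apart and lower.

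**Figure D4:**
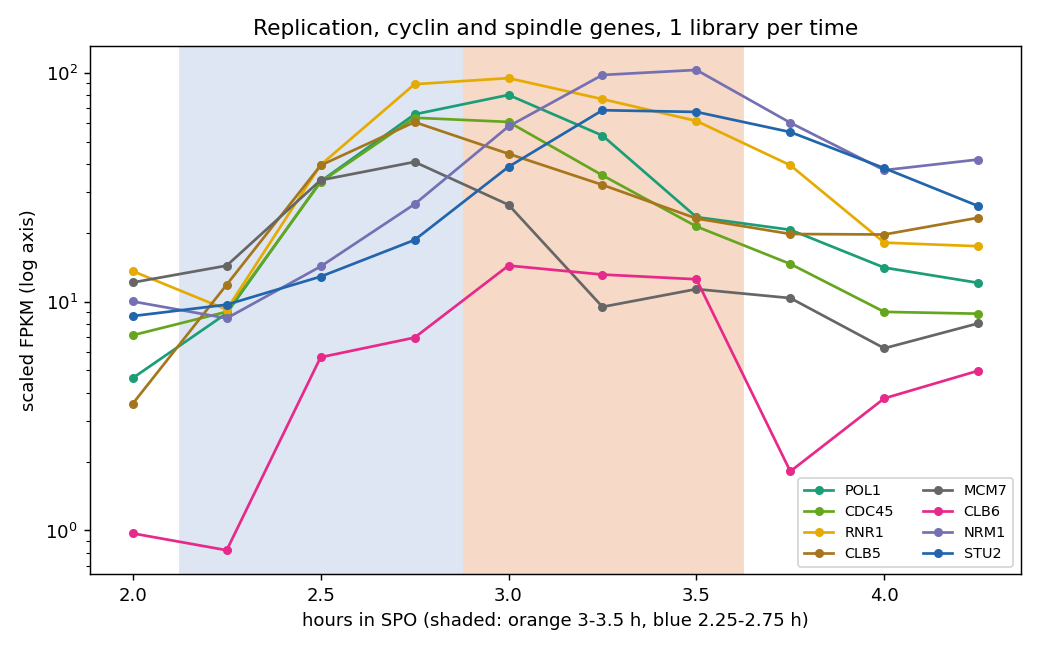
Scaled FPKM (y axis, log scale) of 8 replication, cyclin, regulator and spindle genes by hours in SPO (x axis), 1 library per time, with the 3 to 3.5 h window in orange and the 2.25 to 2.75 h window in blue. CLB5, MCM7 and CDC45 are highest at 2.75 h, POL1 and RNR1 at 3 h, and NRM1 at 3.5 h with 103 FPKM.

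Cohesin genes had a median log2 change of 0.69, and 7 of 10 were highest at 2.75 or 3 h, against 1726 of all 6377 genes. SMC3 (chrX:299157-302849) and SMC1 encode the paired arms of the cohesin ring. SMC3 had 165, 164 and 108 FPKM at 3, 3.25 and 3.5 h, against 14.8, 41.4 and 109.7 FPKM in the early window. SMC1 had 262, 267 and 162 FPKM in the entry window, against 37.5, 74.3 and 177 FPKM in the early window. In both genes the 2.75 h library lay above the 3.5 h library, so the windows overlapped (log2 changes 1.78 and 1.49, adjusted p = 0.322 and 0.317, limma). IRR1, the Scc3 subunit, was the 1 of 10 cohesin genes that was apart, against 2.63% of all genes apart and higher. It had 117, 120.1 and 114 FPKM at 3, 3.25 and 3.5 h, against 28.1, 52.7 and 90.4 FPKM in the early window (log2 change 1.18). Its log2 change was 0.76 without the 2.25 h library, and no cohesin gene was then apart. REC8, the meiosis-specific subunit that holds sisters together, had 337, 190.1 and 168 FPKM in the entry window, against 103, 269 and 396 FPKM in the early window, a log2 change of -0.01. ECO1, the acetyltransferase that locks cohesin during replication, had 81.1, 51.7 and 25.9 FPKM in the entry window, against 18.6, 67.6 and 113 FPKM in the early window. Of the 10 cohesin promoters, 6 held ACGCGT (60.0%).

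Spindle and kinetochore genes followed, in lists that were drawn up after the values were seen and are therefore given as description only. Of 23 spindle and microtubule genes, 13 were apart and higher at 3 to 3.5 h, against 2.63% of all genes, with a median log2 change of 1.05. The highest level fell at 3.25 or 3.5 h in 16 of the 23, against 2100 of all 6377 genes. Of the 23, 7 were apart without the 2.25 h library. Of 25 kinetochore and segregation genes, 6 were apart and higher, with a median of 0.60, and 5 without the 2.25 h library. STU2 (chrXII:235037-237703), a microtubule polymerase, had 38.8, 68.6 and 67.4 FPKM at 3, 3.25 and 3.5 h, against 9.70, 12.9 and 18.6 FPKM in the early window (log2 change 2.01 ± 0.33). TUB1, the major alpha-tubulin gene, had 221, 309 and 363 FPKM at 3, 3.25 and 3.5 h, against 44.9, 91.8 and 148 FPKM in the early window (log2 change 1.77 ± 0.45). TUB1 then had 396, 314 and 232 FPKM at 3.75, 4 and 4.25 h. The median of the spindle list ran 34.8, 32.2, 26.7, 21.9 and 17.9 FPKM from 3.25 to 4.25 h, against 9.70 to 19.1 FPKM in the early window.

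A straight line in time across the 6 libraries, fitted with limma after the values were seen, called 12 genes higher (0.188% of genes tested) and 11 genes lower (0.172%). These calls needed an adjusted p under 0.05 only, with no limit on the size of the slope. The 12 were the histone genes HTA2, HTB2 and HHT1, NRM1, GAS3, a cell wall enzyme of the glucanosyltransferase family, and 7 genes of the spindle and kinetochore lists. The 7 were TUB1, TUB2 for beta-tubulin, STU2, the kinesin CIN8, the kinesin partner VIK1, NNF1 of the kinetochore's MIND complex, and SGO1, which protects centromeric cohesin. All 12 had an adjusted p of 0.0490. The 11 lower genes were ENO1, YRO2, AFT2, EGO4, HBT1, FAA2, FMP33, HUR1, ZTA1, YGR127W and YCL042W. NNF1 had 15.4, 44.0 and 43.8 FPKM at 3, 3.25 and 3.5 h, against 1.91, 6.00 and 9.60 FPKM at 2.25, 2.5 and 2.75 h. SGO1 had 28.5, 47.8 and 48.5 FPKM in the entry window, against 8.59, 9.06 and 13.8 FPKM in the early window. Both genes had windows apart. PDS1, the securin that holds back separase, had 86.4, 117 and 124 FPKM in the entry window, against 24.3, 42.4 and 73.5 FPKM in the early window (log2 change 1.33, and 0.94 without the 2.25 h library; slope adjusted p = 0.0657, limma).

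Regulators of the later cell cycle stood among the other higher genes, named here after their values were seen. FKH1, a forkhead factor of G2 and M phase genes, had 26.3, 39.9 and 28.2 FPKM at 3, 3.25 and 3.5 h, against 11.1, 11.2 and 10.5 FPKM in the early window (log2 change 1.43 ± 0.22). NDD1, the co-activator of the same genes, had 49.1, 77.2 and 91.9 FPKM in the entry window, against 34.0, 27.7 and 21 FPKM in the early window (log2 change 1.35 ± 0.31). SWE1, the kinase that restrains cyclin B kinase, had 28.8, 32.9 and 27.7 FPKM in the entry window, against 6.66, 10.2 and 19.5 FPKM in the early window (log2 change 1.35 ± 0.37). In all 3 the windows were apart, and none passed a fit (adjusted p = 0.156, 0.322 and 0.247 with limma on 21 libraries).

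A pair of helicases and topoisomerase II, also named after their values were seen, were apart and higher as well. SRS2, a DNA helicase, had 18.2, 27.7 and 25.2 FPKM at 3, 3.25 and 3.5 h, against 6.26, 5.74 and 8.68 FPKM in the early window (log2 change 1.64 ± 0.25, adjusted p = 0.0541, limma on 21 libraries). SGS1, the RecQ helicase, had 28.2, 36.7 and 43.3 FPKM in the entry window, against 11.7, 17.2 and 22.8 FPKM in the early window. TOP2, topoisomerase II, had 64.4, 71.2 and 52.7 FPKM in the entry window, against 20.8, 24.8 and 45.2 FPKM in the early window. The log2 changes of SGS1 and TOP2 were 0.81 and 0.87 without the 2.25 h library, under the limit of 1. Of 26 genes for repair of the mitotic type, 2 were apart and higher, against 2.63% of all genes, the median log2 change was 0.36, and none were apart without the 2.25 h library.

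The other 4 genes called higher by limma on 21 libraries were TEM1, the GTPase of mitotic exit, FIR1, SPP41 and the reading frame YKL069W. TEM1 had 16.2, 11.8 and 23.8 FPKM at 3, 3.25 and 3.5 h, against 2.16, 7.03 and 4.45 FPKM in the early window (adjusted p = 0.0154), with 3 implied fragments behind its lowest value. YKL069W had 45.3, 56.8 and 82.7 FPKM in the entry window, against 23.8, 19.0 and 14.9 FPKM in the early window (adjusted p = 0.0175, limma on 21 libraries). FIR1 and SPP41 had adjusted p of 0.0446 and 0.0497 in the same limma fit, and log2 changes of 1.31 and 1.18.

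The genes of meiotic recombination were counted across 5 lists. Across the lists for double-strand breaks, the chromosome axis and its checkpoint, strand exchange, the synaptonemal complex and telomere movement, 1 of 38 genes was apart and lower and none were apart and higher, against 3.29% and 2.63% of all genes (2 lower without the 2.25 h library). The medians of the log2 change were 0.36, -0.20, -0.01, 0.27 and 0.38 in that order of lists. DMC1, the meiotic recombinase, had 531, 304 and 374 FPKM at 3, 3.25 and 3.5 h, against 527, 1062 and 779 FPKM in the early window (log2 change -0.95 ± 0.35, adjusted p = 0.311, limma). ZIP1, the central element of the synaptonemal complex, had 151, 116 and 124 FPKM in the entry window, against 68.0, 126 and 145 FPKM in the early window (log2 change 0.27). HOP1, an axis protein, had 225, 134 and 155 FPKM in the entry window, against 150.1, 320.2 and 317 FPKM in the early window (log2 change -0.57). For all 3 the windows overlapped, with the highest value at 2.5 h in DMC1 and HOP1 and at 3 h in ZIP1.

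SPO11, which makes the double-strand breaks, stood low in both windows with 18.7, 14.3 and 24.3 FPKM at 3, 3.25 and 3.5 h, against 4.65, 21.1 and 19.4 FPKM in the early window, and reached 63.8 FPKM at 4.25 h. MEK1, the kinase that steers repair toward the homologue, was the gene of these lists that was apart and lower. It had 156, 83.8 and 156 FPKM at 3, 3.25 and 3.5 h, against 256, 296 and 244 FPKM in the early window (log2 change -1.05 ± 0.30, adjusted p = 0.251, limma). At 3.75 h it was back at 233 FPKM, and with the 2 h library, at 0.707 FPKM, added to the early window the log2 change was 0.77.

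The core of URS1, GCCGCC on either strand, stood in 290 of 5727 promoters (5.06%), in 3 of 4 axis and checkpoint genes, in 4 of 12 synaptonemal complex genes and in 3 of 11 double-strand break genes. It also stood in 19 of the 177 promoters read for genes apart and lower (10.7%) and in 4 of the 151 for genes apart and higher (2.65%). The MEK1 promoter (chrXV:996462-996761, minus strand, R64), printed as an example with the matches in capitals, holds it 148 and 134 bases before the start, both times as GGCGGC in the direction of the gene.
MEK1: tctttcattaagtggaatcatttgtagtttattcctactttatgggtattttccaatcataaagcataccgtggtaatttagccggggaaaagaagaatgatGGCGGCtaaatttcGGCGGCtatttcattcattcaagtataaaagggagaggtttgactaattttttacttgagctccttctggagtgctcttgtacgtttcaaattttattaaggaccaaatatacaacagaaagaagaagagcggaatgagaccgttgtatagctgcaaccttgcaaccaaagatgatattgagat

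The induced regulators had passed their peak by 3 h. IME1 (chrX:604569-605651) had 1413, 1568 and 2647 FPKM at 3, 3.25 and 3.5 h, against 9758, 9391 and 5078 FPKM at 2.25, 2.5 and 2.75 h (log2 change -2.10 ± 0.38, adjusted p = 0.0577, limma on 21 libraries). IME4 (chrVII:142246-144048), which adds methyl groups to adenosines in mRNA, had 758, 541 and 724 FPKM at 3, 3.25 and 3.5 h, against 3227, 2846 and 1973 FPKM in the early window. IME4 fell by 1.98 ± 0.28 on the log2 scale (adjusted p = 0.0252, limma on 21 libraries). In both genes the windows were apart, and the entry values stayed above the 2 h values of 876 FPKM for IME1 and 96.0 FPKM for IME4. Over all settings the log2 change ranged from -2.41 to -0.84 for IME1 and from -2.18 to -0.78 for IME4.

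IME2, a kinase that Ime1 switches on and that promotes premeiotic S phase, had 202, 141 and 251 FPKM at 3, 3.25 and 3.5 h, against 500.2, 426 and 319 FPKM in the early window. Its windows were apart (log2 change -1.08 ± 0.30, adjusted p = 0.251, limma; -0.93 without the 2.25 h library), but it stood at 598 FPKM at 3.75 h, and with the 2 h library, at 3.68 FPKM, added to the early window its log2 change was 0.54. NDT80, the activator of the middle meiotic genes, had 3.37, 2.07 and 3.50 FPKM in the entry window, against 1.60, 4.15 and 3.54 FPKM in the early window. The list of 24 middle meiotic genes was meant to mark cells ahead of the rest. It also holds SUM1, RFM1 and HST1, of the complex that represses such genes, so its counts mix both kinds. Of the 24, 1 was apart and higher and 1 was apart and lower, against 2.63% and 3.29% of all genes. Their median log2 change was 0.01. The higher one was CLB4, a B-type cyclin, and the lower one SMK1, a spore wall kinase that stayed under 10 FPKM in all 6 libraries and had a log2 change of -0.83 without the 2.25 h library. None of the 15 haploid-specific and mating genes tested, which would mark cells of another kind, were apart (median log2 change -0.02). Of the 16 meiotic regulators, IME1, IME4 and IME2 were the 3 that were apart and lower, against 3.29% of all genes. None were apart and higher, and the median was -0.26.

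The natural copper targets were lower in the entry window too. CUP1-1 and CUP1-2 encode the same copper metallothionein, are identical over their 186 coding bases and lie fully within other rows of the table, so their values cannot be separated. CUP1-1 had 1895, 1010.1 and 1564 FPKM at 3, 3.25 and 3.5 h, against 3495, 5501 and 3478 FPKM in the early window. CUP1-2 had 1254, 1287 and 1043 FPKM in the entry window, against 3298, 4822 and 3189.8 FPKM in the early window. The windows of both were apart (log2 changes -1.49 and -1.64, adjusted p = 0.328 and 0.293, limma on 21 libraries). Of the 4 copper-activated genes, 3 were apart and lower (both CUP1 copies and SOD1, the copper-zinc superoxide dismutase), against 3.29% of all genes, and the list's median was -1.31. Without the 2.25 h library the log2 change of SOD1 was -0.70 and the CUP1 copies were the 2 genes apart. Over all settings the log2 change ranged from -1.69 to -0.26 for CUP1-1, from -1.75 to -0.57 for CUP1-2 and from -1.50 to -0.23 for SOD1. The list's median level was 610 FPKM at 3.5 h and 1253 FPKM at 3.75 h. Of the 20 genes of copper and iron uptake, 1 was apart and lower: AFT2, an iron-responsive activator, fell by 1.71 ± 0.33 on the log2 scale (adjusted p = 0.0175, limma on 21 libraries).

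Glycolysis and fermentation had the lowest median change of the 29 lists. Of 21 tested genes of glycolysis and fermentation, 12 were apart and lower (3.29% of all genes), the median log2 change was -1.38, and 3 fell by limma on 21 libraries (0.329% of all genes). TDH3 (chrVII:882812-883810), glyceraldehyde-3-phosphate dehydrogenase, had 18.0, 9.94 and 14.0 FPKM at 3, 3.25 and 3.5 h, against 249, 158 and 63.9 FPKM in the early window, a log2 change of -3.23 ± 0.51 (adjusted p = 0.00859, limma on 21 libraries). PGI1, glucose-6-phosphate isomerase, had 2.03, 0.865 and 2.01 FPKM in the entry window, against 37.7, 21.1 and 5.90 FPKM in the early window (adjusted p = 0.0137, limma on 21 libraries). ENO1, an enolase, had 4.86, 1.99 and 2.06 FPKM in the entry window, against 41.3, 21 and 9.37 FPKM in the early window (adjusted p = 0.0398, limma on 21 libraries).

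In all 3 genes the decline ran through the early window, so that the 2.75 h library lay nearest to the entry window. Of the 21 genes, 18 were highest at 2.25 h, against 1750 of all 6377 genes. With both windows 1 library later, 4 of the 21 were apart. TDH3 and TDH2 share 95.8% of their coding positions and ENO1 and ENO2 94.8%, so that levels within a pair are uncertain; TDH2 had 7.12, 5.56 and 7.39 FPKM in the entry window, against 42.6, 20.2 and 7.47 FPKM in the early window (log2 change -1.38, and -0.81 without the 2.25 h library). HXK1, hexokinase 1, was the exception with 3.98, 20.7 and 24.8 FPKM at 3, 3.25 and 3.5 h, against 20.0, 9.84 and 3.54 FPKM in the early window (log2 change 0.48).

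Of 20 cell wall and adhesion genes, 4 were apart and lower, against 3.29% of all genes, and the median was -0.71. FLO11 (chrIX:389572-393675), the flocculin of surface adhesion, had 896, 519 and 730.2 FPKM at 3, 3.25 and 3.5 h, against 5691, 3874 and 1851 FPKM in the early window, and fell by 2.30 ± 0.45 on the log2 scale (adjusted p = 0.00735, limma on 21 libraries). PIR3, a protein bound to wall glucan, had 17.8, 8.98 and 12.2 FPKM in the entry window, against 96.5, 70.0 and 30.3 FPKM in the early window (adjusted p = 0.0383, limma on 21 libraries). HSP150 and YGP1, both secreted wall glycoproteins, were apart and lower without passing (log2 changes -1.93 and -1.85), and without the 2.25 h library the log2 change of HSP150 was -1.24. Of 20 heat shock and stress genes 3 were apart and lower (1 without the 2.25 h library), among them DDR2 with 96.8, 128 and 337 FPKM at 3, 3.25 and 3.5 h, against 1883, 1901 and 653 FPKM in the early window (log2 change -3.04, adjusted p = 0.503, limma on 21 libraries). A total of 127 genes were taken as cytosolic ribosomal protein genes by name (RPL, RPS or RPP and a number). Of these, 8 (6.30%) were apart and lower, against 3.29% of all genes (9 lower and 2 higher without the 2.25 h library). The rule of names also took in RPP1, a subunit of RNase P. The median log2 change of the 127 was -0.50, from list medians of 2.25 to 3.29 FPKM in the entry libraries and 2.86 to 7.39 FPKM in the early ones. Acetate use and gluconeogenesis had no gene apart (median -0.52; 1 higher without the 2.25 h library). Of 23 nitrogen-controlled uptake genes 1 was apart and higher (median 0.19, and 3 without the 2.25 h library). Of 26 ribosome biogenesis genes 1 was apart and higher and 1 lower (median 0.28, and 1 higher and 0 lower without the 2.25 h library). Over all genes, 2.63% were apart and higher and 3.29% were apart and lower.

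Among the genes that fell, some act on RNA. NRD1 (chrXIV:172588-174315), which ends transcription of short noncoding RNAs, had 82.3, 42.1 and 49.9 FPKM at 3, 3.25 and 3.5 h, against 435, 594 and 223 FPKM in the early window (log2 change -2.77 ± 0.43, adjusted p = 0.0300, limma on 21 libraries). HRP1 (chrXV:87844-89448), an RNA-binding factor of mRNA 3′ end formation, had 13.5, 8.35 and 11.7 FPKM in the entry window, against 59.9, 75.1 and 35.0 FPKM in the early window (log2 change -2.20 ± 0.34, adjusted p = 0.000883, limma on 21 libraries). Both were highest at 2.5 h and lowest at 3.25 h, and NRD1 was back at 217 FPKM at 4.25 h. Of 18 genes of arginine and lysine synthesis 2 were apart and lower, against 3.29% of all genes (median -0.58). ARG3, ornithine carbamoyltransferase of arginine synthesis, had 27.2, 13.2 and 8.83 FPKM in the entry window, against 88.1, 126 and 63.9 FPKM in the early window (log2 change -2.52 ± 0.44, adjusted p = 0.0182, limma on 21 libraries).

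ULP2 (chrIX:292633-295737), a SUMO protease, had 87.9, 54.7 and 126 FPKM at 3, 3.25 and 3.5 h, against 356, 283 and 183 FPKM in the early window (log2 change -1.63 ± 0.39, adjusted p = 0.0452, limma on 21 libraries). At 2 h it stood at 12.1 FPKM. That the plotted IME1 and IME4 levels are highest at 2.25 h rests on the factor of 0.810 for that library: on the deposited FPKM, IME1 had 7908 at 2.25 h and 9734 at 2.5 h, and IME4 had 2615 and 2949.8. VPS30, the yeast Beclin of autophagy, had 16.3, 12.5 and 20.2 FPKM in the entry window, against 79.4, 68.1 and 35.6 FPKM in the early window (adjusted p = 0.00859, limma on 21 libraries). CIN1, a tubulin folding factor, had 7.41, 3.67 and 2.19 FPKM in the entry window, against 17.2, 33.2 and 18.7 FPKM in the early window (adjusted p = 0.0181, limma on 21 libraries). In both genes every entry value lay below every early value. The other genes called lower by limma on 21 libraries were TFB2, PRY1, YRO2, YGR127W, YDR543C, SNR36 and YIL030W-A, an open reading frame partly overlapped by ULP2. SNR36 and YDR543C were listed at 0 in all 3 entry libraries.

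**Figure D5:**
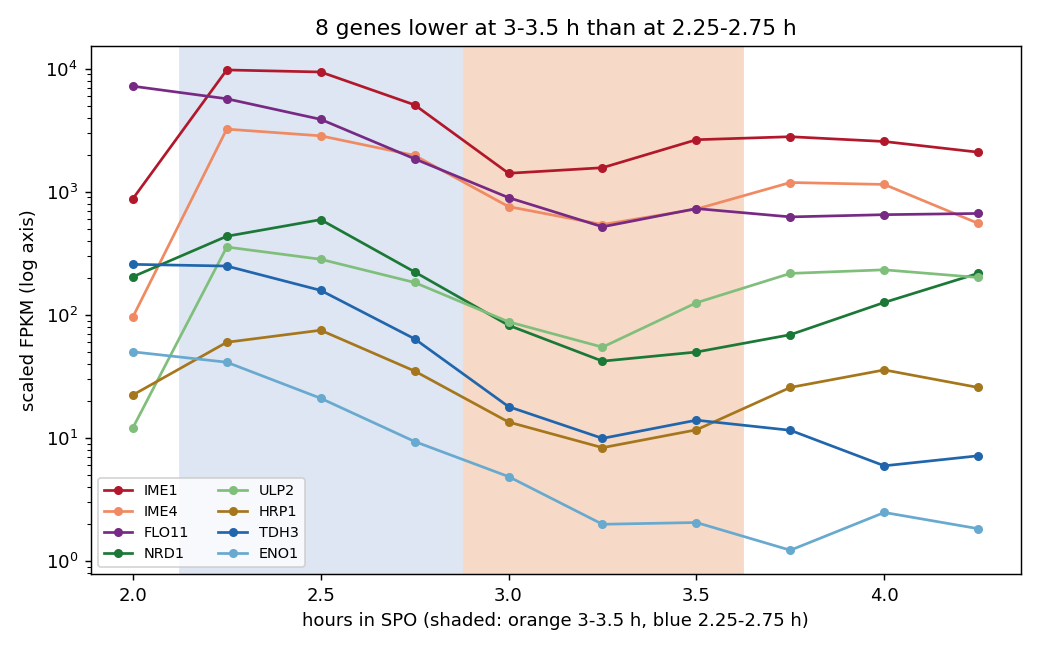
Scaled FPKM (y axis, log scale) of 8 genes lower at 3 to 3.5 h by hours in SPO (x axis), 1 library per time, with the 3 to 3.5 h window in orange and the 2.25 to 2.75 h window in blue. On these scaled values IME1, IME4 and ULP2 are highest at 2.25 h, NRD1 and HRP1 at 2.5 h, and FLO11, TDH3 and ENO1 at 2 h.

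Some of the lower genes lie beside early meiotic genes, and whether the deposited values separate strands is not known. CIN1 (chrXV:989789-992833), MNE1 (chrXV:992864-994855) and MEK1 (chrXV:995018-996511) are neighbours, and all 3 were apart and lower. MNE1, a mitochondrial protein, had 57.5, 26.9 and 55.0 FPKM at 3, 3.25 and 3.5 h, against 112, 147 and 119 FPKM in the early window, and stood at 4.93 FPKM at 2 h. VPS30 and TFB2, a subunit of the transcription factor TFIIH, lie on either side of MEI5 (chrXVI:320962-321630), a meiotic recombination gene with 714, 577 and 420.2 FPKM at 3, 3.25 and 3.5 h, against 347, 585 and 879 FPKM in the early window. TFB2 had 8.67, 5.43 and 5.37 FPKM in the entry window, against 17.0, 25.3 and 13.3 FPKM in the early window (adjusted p = 0.0446, limma on 21 libraries). Whether transcripts of a neighbour add to the values of CIN1, MNE1, VPS30 or TFB2 was not tested.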

How the data were processed

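Total RNA of 23 libraries, 1 per time, was prepared with the Ambion Ribopure kit and random-hexamer NuGEN Ovation libraries, per the labels' protocols. The authors deposited FPKM per gene with lower and upper bounds, per the file headers, made with Bowtie and Cufflinks 2.2.1 on the builds R64 and sacCer3, per the submitters' processing notes; strand setting and filters: not given in the sources used here. Of 7132 rows, 11 without an estimate and 254 without a gene name were left out. Of 6710 identifiers 6020 matched RefSeq. A few lines of each table are not reported here. Implied fragments are the squared ratio of an FPKM to its standard error, with the bounds taken as 2 standard errors, and cover counting error only.

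FPKM was divided by median-of-ratios factors over 6045 genes above 0 in all 6 libraries; other libraries were brought to the same scale. Genes with a mean of at least 1 were tested as log2(scaled FPKM + 1) with limma 3.58.1 (R 4.3.3, eBayes with trend, two-sided) and called at an adjusted p under 0.05 and a log2 change of at least 1. Calls of the straight line in time used the adjusted p alone. Factors, overlaps and motifs were computed with Python 3.11.15, pandas 2.3.3 and NumPy 2.4.6. The fit was run on simulated data with independent noise in each library. Such data lack the trend within a window, so that run does not show how the p-values behave here. Alternatives were other scalings, pseudocounts, filters, variance models and windows, and leaving out each library.

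The windows, members, 29 gene lists and named genes were chosen with earlier results of these data known, and 2 of the lists (spindle, kinetochore) were added after the values were seen. The rule named IME1, IME4, IME2, NDT80, RNR1, POL1, CLB5, CLB6, SIC1 and HTB2, next the called genes of at least 300 bases, under 40% overlapped and at 10 FPKM or more in either window (15 upward, 12 downward, by size), and last 4 called members per list, or 2 where a list had none. As only YHR212W-A was called, the other genes named were chosen after their values were seen.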

Additional observations from a re-analysis of the deposited data

How the results depend on the processing

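No gene was called higher with limma on the 6 libraries under 8 of the other settings; 12 were called with the spread of 21 libraries, 12 with a straight line in time (added after the data were seen), 2 with both windows 1 library later, and 0 to 3 with each library left out. For genes called lower the main count of 1 became 21 with 21 libraries, 11 with the straight line, 4 with later windows, 3 without a filter, 3 without a variance trend, 2 with a pseudocount of 0.1, 0 with a mean of at least 5 FPKM, 0 with the 2 h library added, and 0 to 4 with each library left out. The counts of genes apart were 255 higher on deposited FPKM and 83 higher and 128 lower with a pseudocount of 5; with each library left out they were 161 to 333 higher and 214 to 445 lower. Histone genes apart numbered 4 with later windows and 9 to 11 with each library left out, and glycolytic genes 4 and 11 to 16. Without the 2.25 h library, the lone outlying library on the first component, 10 histone and 11 glycolytic genes were apart and limma called 3 genes higher and 4 lower. The cause of these differences was not tested. Of 1783 values of 112 genes under other settings, 3 changed sign: CLB6 to -0.20 with later windows, and IME2 to 0.54 and MEK1 to 0.77 with the 2 h library added. A call was gained in 36 (33 genes) and lost in 6, all of YHR212W-A. The 21-library spread and the variance trend do not enter the count of genes apart, and that count was not made on quantile-scaled values. No paired analysis was possible because each time has 1 library and the numbers within a window only order the times. Genes with a few implied fragments, such as YHR212W-A, CLB6 and TEM1, are limited by depth.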
